A study of Drosophila melanogaster with 10 samples.

Results

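The 8 core genes of the Drosophila microRNA (miRNA) and small interfering RNA (siRNA) pathways were examined as a set. They are the Argonaute genes AGO1 and AGO2, the Dicer genes Dcr-1 and Dcr-2, the partner genes loqs and r2d2, and the Microprocessor genes drosha and pasha. A probe set was taken when its annotation held only 1 symbol and that symbol was one of these names. This gave 8 probe sets, 1 for each gene, of 13773 that carry 1 symbol, or of 12401 genes with such a probe set. The miRNA branch has 5 of the genes (AGO1, Dcr-1, loqs, drosha and pasha) and the siRNA branch 3 (AGO2, Dcr-2 and r2d2). All 8 passed the filter on low signal, which asks for a mean log2 level of 4 or more over the arrays.

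The study measured gene expression in a cultured Drosophila melanogaster line, DL1, with the Affymetrix Drosophila_2 array. The control group was bathed in double-stranded RNA (dsRNA) to renilla, a sequence with no counterpart in the fly, and the treated group in dsRNA to nbr (CG9247). Both groups were grown at 1 temperature and collected on day 5, and each had 5 independent replicates with 1 array each, according to the series' design text. Both groups were therefore exposed to long dsRNA, and no group without dsRNA was analysed here.

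In flies, long dsRNA is cut by Dicer-2, and R2D2 helps to load the resulting siRNAs into Argonaute 2, which slices matching transcripts. MicroRNA precursors take another route. Drosha and its partner Pasha release hairpins from primary transcripts in the nucleus, Dicer-1 with Loquacious cuts the hairpins to duplexes, and Argonaute 1 carries most mature miRNAs. Nibbler, the product of nbr, is an exoribonuclease that shortens the 3' ends of miRNAs held by Argonaute 1. By this route the RNAi against nbr would itself run through the siRNA branch. The comparison shows whether transcripts of either branch differed with nbr RNAi. The arrays measure neither the Nibbler protein nor the ends of miRNAs.

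The targeted gene was lower on every treated array. Its log2 level was 11.16 to 11.48 in control RNAi and 7.56 to 8.84 in nbr RNAi, with a log2 fold change of -3.16 (limma, Benjamini-Hochberg adjusted p = 1.46e-04). Correlations between arrays over the tested probe sets ran from 0.977 to 0.998, and nbr RNAi array 5 lay farthest from the rest in an earlier description of these data, so the fold changes of the members and of the named pathway genes, and the differences between members, are also given without it. Of 12 blood cell markers, 10 were above the filter, among them the haemocyte surface gene He (mean 14.38) and the GATA factor gene srp (12.46). The lowest of those above it were Hml (7.26), NimC1 (7.12) and Pxn (5.64), and Col4a1 and Sr-CI were not above it (2.18 and 2.39). None of 5 fat body, 5 germline or 3 midgut markers was above it, and 1 of 7 muscle, 2 of 5 neuron, 2 of 3 glia and 2 of 6 crystal cell and lamellocyte markers were. Some of these were bright, as the muscle marker Mef2 (14.96), the glia marker nrv2 (12.14) and the neuron marker Syn (10.85). No marker was called. In RNA from whole cultures, fewer cells of a type and less RNA per cell cannot be told apart.

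None of the 8 core genes passed the test for a change with nbr RNAi. Across all 7729 probe sets tested, limma called 2 at a Benjamini-Hochberg adjusted p under 0.05, or 0.0259% of them, and 0 of the 8 members. An unadjusted limma p under 0.05 was reached by 5.87% of all probe sets and by 0 members, whose lowest adjusted p was 0.909. The groups did not overlap for 0.970% of all probe sets and for 0 members. The log2 fold change (nbr RNAi minus control RNAi) was above 0 for 5 members and below 0 for 3. The median of the 8 log2 fold changes was 0.016, beside 0.0056 over all probe sets tested, and the median size was 0.050, beside 0.056. Without nbr RNAi array 5 the members' median was 0.052, and that of all probe sets stayed at 0.0056.

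The limma intervals, which assume an equal spread in both groups, bounded the change in the normalized signal of each member's probe set. For all 8 members the 95% interval of the fold change lay within 1.5-fold in either direction, as it did for 92.9% of all probe sets tested. The interval reaching farthest from 0 was that of Dcr-2, to -0.32 on the log2 scale, a 1.25-fold lower level. The narrowest was that of loqs, which extended no farther than -0.11, or 1.08-fold. The median standard error was 0.079 for the members and 0.071 for all probe sets tested. The SD was larger in nbr RNAi than in control RNAi for 6 of the 8 genes, r2d2 and drosha being the exceptions. Without nbr RNAi array 5 it was larger for AGO1 (0.15 against 0.067 in control RNAi) and pasha (0.19 against 0.10) only. For the other genes it was then smaller, as for AGO2 (0.028 against 0.077) and Dcr-2 (0.033 against 0.072). The share over all probe sets was not counted.

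**Figure D1:**
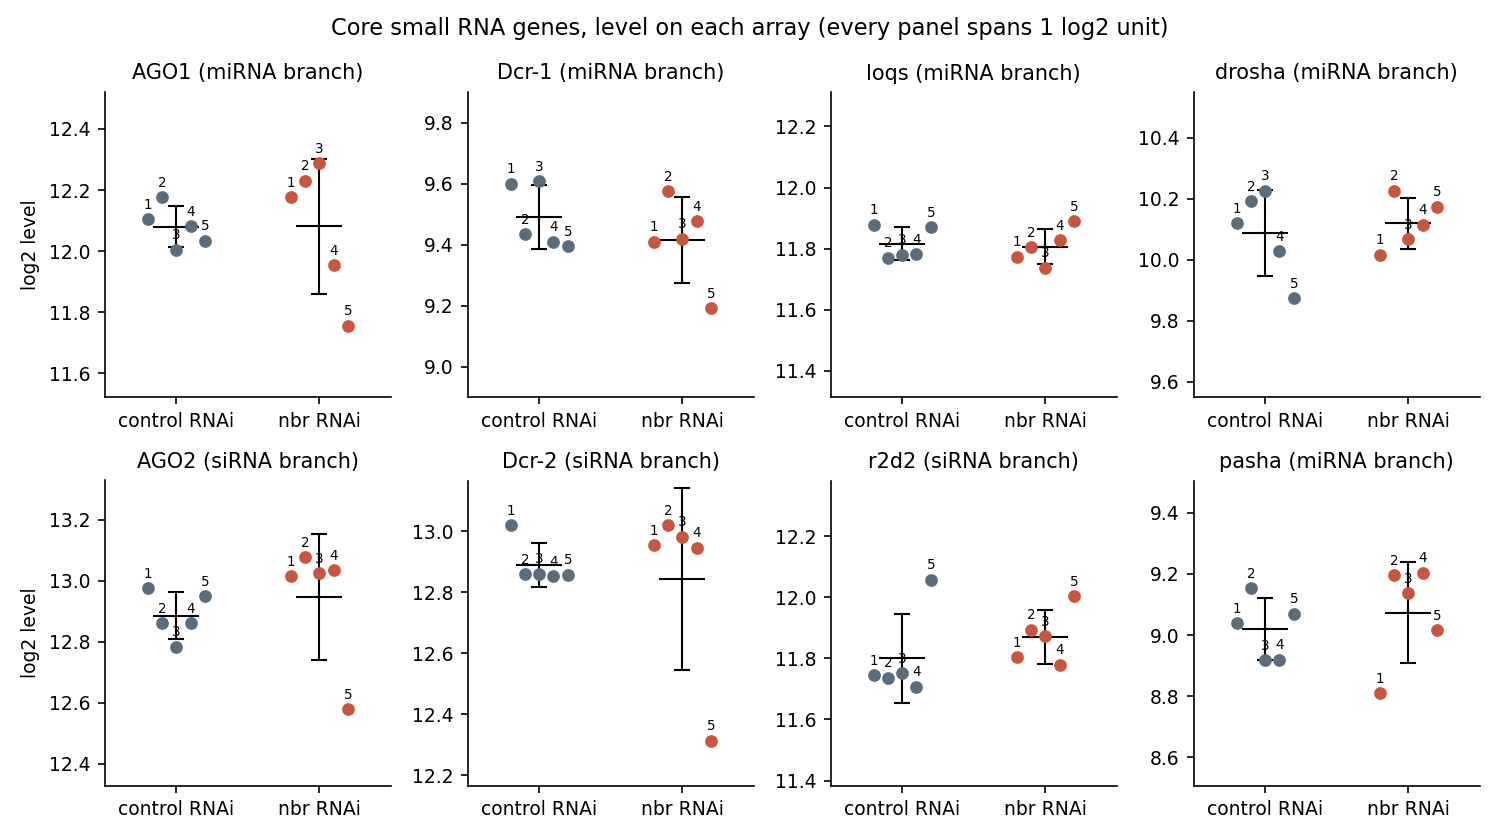
Log2 level of each core gene on each array, with control RNAi in grey and nbr RNAi in red. Numbers are replicates, the long dash is the mean and bars are the SD (n = 5), and every panel spans the same range on the y axis. On nbr RNAi array 5 both Argonaute and both Dicer genes have their lowest value, while loqs and r2d2 have their highest of the nbr RNAi arrays.

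Among the Argonaute genes, AGO1 (FlyBase FBgn0026611), whose protein holds miRNAs and recruits the silencing partner Gawky, had log2 levels of 12.10, 12.18, 12.00, 12.08 and 12.03 on control arrays 1 to 5. On nbr RNAi arrays 1 to 5 it read 12.18, 12.23, 12.29, 11.95 and 11.76. Of the treated arrays, 3 thus lay at or above the highest control and 2 below the lowest, and both means were 12.08, with an SD of 0.067 in the control group and 0.22 in the treated group (n = 5). The log2 fold change was 0.00070 (SE 0.096, 95% interval -0.21 to 0.21), and a 2-sided exact permutation test over all splits of the arrays gave p = 0.992. Without nbr RNAi array 5 the log2 fold change was 0.082 (95% interval -0.071 to 0.24).

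The siRNA counterpart AGO2 (FBgn0087035), which slices transcripts matched by siRNAs, had log2 levels of 12.97, 12.86, 12.78, 12.86 and 12.95 in control RNAi. In nbr RNAi it read 13.01, 13.08, 13.02, 13.03 and 12.58. Of the treated arrays, 4 lay above every control and array 5 below every control. The means were 12.89 ± 0.077 (SD, n = 5) and 12.95 ± 0.21 (SD, n = 5), and the log2 fold change was 0.060 (SE 0.092, 95% interval -0.14 to 0.26, exact permutation p = 0.579). Without nbr RNAi array 5 it was 0.15 (95% interval 0.050 to 0.25), more than 1.5 times as large, and the remaining treated arrays were higher in 4 of 4 cases. That value did not pass in limma (Benjamini-Hochberg adjusted p = 0.468), and the exact permutation p was 0.0159, where 9 arrays can give no p below 0.00794. AGO2 was then the 1 member that was higher with no overlap of the groups, as were 1.72% of all probe sets without that array. It was also the 1 member higher at an unadjusted limma p under 0.05, as were 5.37%. Both shares count higher probe sets only, a direction taken after the values of AGO2 were seen. The array was also left out with these data known, so the permutation p without it and the lack of overlap rest on that choice. The shares given with all arrays count either direction. Adjusted, limma called 0.0388% of all probe sets and 0 members without that array.

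For the Dicer genes, the levels of Dcr-1 (FBgn0039016), the nuclease that cuts miRNA hairpins, were 9.60, 9.44, 9.61, 9.41 and 9.40 in control RNAi. The nbr RNAi arrays read 9.41, 9.58, 9.42, 9.48 and 9.19, so that 4 lay inside the control range and array 5 below it. Dcr-1 had a log2 fold change of -0.075 (SE 0.076, 95% interval -0.24 to 0.093, exact permutation p = 0.429), the largest in size among the members. It was -0.019 without nbr RNAi array 5.

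Dcr-2 (FBgn0034246), which makes siRNAs from long dsRNA, had log2 levels of 13.02, 12.86, 12.86, 12.85 and 12.86 in control RNAi. It read 12.95, 13.02, 12.98, 12.95 and 12.31 in nbr RNAi. Control array 1 stood above the other controls, and array 5 of the treated group stood far below every other array. The SD was 0.072 in control RNAi and 0.30 in nbr RNAi (n = 5), and 0.033 over the other 4 treated arrays. Dcr-2 had a log2 fold change of -0.047 (SE 0.12, 95% interval -0.32 to 0.23, exact permutation p = 0.968). Without nbr RNAi array 5 its sign turned, to 0.085 (95% interval -0.015 to 0.19, limma Benjamini-Hochberg adjusted p = 0.511).

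Of the dsRNA-binding partners, loqs (FBgn0032515), which acts with Dicer-1, had the smallest SD of the 8 genes in both groups. Its log2 levels were 11.88, 11.77, 11.78, 11.78 and 11.87 in control RNAi and 11.77, 11.80, 11.74, 11.83 and 11.89 in nbr RNAi. The groups covered almost the same range, with SDs of 0.054 and 0.057 (n = 5), and the log2 fold change was -0.010 (SE 0.043, 95% interval -0.11 to 0.085, exact permutation p = 0.794). It was -0.031 without nbr RNAi array 5. The probe set is annotated to 3 transcripts, of 6 that RefSeq lists for loqs in the Release 6 plus ISO1 MT assembly. Loquacious isoforms are known to act with either Dicer, and this probe set gives no separate level for them. Other members were also annotated to fewer transcripts than RefSeq lists. These were AGO1 (3 of 4), AGO2 (2 of 3), Dcr-2 (1 of 2), r2d2 (2 of 3) and pasha (1 of 3).

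R2d2 (FBgn0031951), the partner of Dicer-2, had log2 levels of 11.75, 11.74, 11.75, 11.71 and 12.06 in control RNAi and 11.80, 11.89, 11.87, 11.78 and 12.00 in nbr RNAi. All 5 treated arrays lay above the 4 lower controls, and control array 5 lay above all of them. For r2d2 the log2 fold change was 0.071 (SE 0.073, 95% interval -0.092 to 0.23, exact permutation p = 0.373). It was 0.037 without nbr RNAi array 5. Leaving out control array 5 gave 0.14, and in the settings tried the lowest limma Benjamini-Hochberg adjusted p was 0.504. On nbr RNAi array 5, where Dcr-2 was lowest, r2d2 was the highest of the treated arrays.

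Of the Microprocessor genes, drosha (FBgn0026722), which encodes the nuclease, read 10.12, 10.19, 10.23, 10.03 and 9.87 in control RNAi and 10.02, 10.23, 10.07, 10.11 and 10.17 in nbr RNAi. Its treated arrays all lay inside or at the edge of the control range. For drosha the log2 fold change was 0.032 (SE 0.071, 95% interval -0.13 to 0.19, exact permutation p = 0.706), and 0.019 without nbr RNAi array 5. Pasha (FBgn0039861), which encodes the dsRNA-binding subunit, read 9.04, 9.15, 8.92, 8.92 and 9.07 in control RNAi and 8.81, 9.20, 9.14, 9.20 and 9.02 in nbr RNAi. Array 1 was its lowest in nbr RNAi, and array 5 lay within the control range. The log2 fold change was 0.053 (SE 0.082, 95% interval -0.13 to 0.24, exact permutation p = 0.556), and 0.067 without nbr RNAi array 5.

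**Figure D2:**
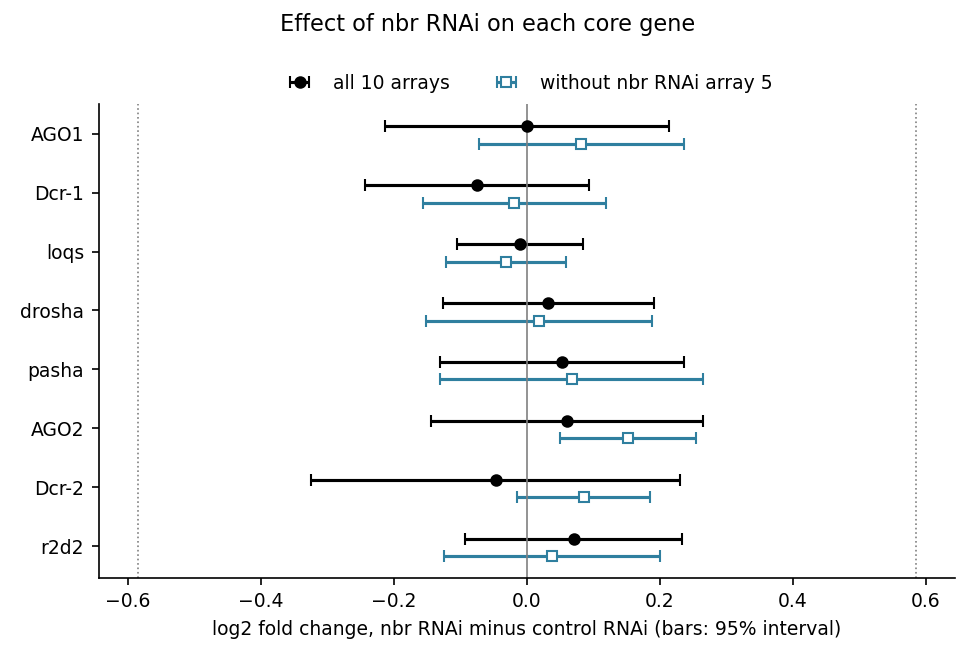
Log2 fold change of each core gene (x axis, nbr RNAi minus control RNAi) with its 95% interval from limma, from all 10 arrays (black circles) and without nbr RNAi array 5 (blue squares). The dotted lines mark 1.5-fold in either direction, and every interval lies inside them. The interval of AGO2 lies above 0 without that array.

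In the authors' deposited table, the signed fold changes of the 8 genes ran from -1.05 for Dcr-1 to 1.05 for r2d2, and the q-values from 36.6% to 38.5%. A further 3 probe sets carry AGO1 or AGO2 together with other symbols and were not members. Both that name AGO1 also name trypsin genes and read 2.01 to 2.18 on all 10 arrays, far below the filter. The probe set of AGO2 and CG7739 read 11.42 to 11.66, with a log2 fold change of 0.018.

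The branches were then compared within each array. The mean log2 level of the 3 siRNA-branch genes on control arrays 1 to 5 was 12.58, 12.49, 12.47, 12.47 and 12.62, and that of the 5 miRNA-branch genes was 10.55, 10.55, 10.51, 10.44 and 10.45. On nbr RNAi arrays 1 to 5 the siRNA branch read 12.59, 12.66, 12.63, 12.59 and 12.30, and the miRNA branch 10.44, 10.61, 10.53, 10.52 and 10.41. Array 5 of the treated group had the lowest mean of all 10 arrays for either branch. Probe sets differ in how strongly they bind their transcripts, so the size of this gap is no measure of relative transcript number, and only its change between arrays was read.

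With all arrays, the shift of the gap between branches with nbr RNAi was smaller than the SD of single arrays. The difference of siRNA and miRNA branch means was 2.03 ± 0.091 (SD, n = 5) for the control arrays and 2.05 ± 0.097 (SD, n = 5) for the treated ones, on the log2 scale. The groups overlapped, at 1.94 to 2.17 and 1.89 to 2.15. Control array 5 held the widest gap, 2.17, and nbr RNAi array 5 the narrowest, 1.89. Without nbr RNAi array 5 the treated mean was 2.09 ± 0.043 (SD, n = 4), which is 0.068 above the control mean and still within the control range. No test was made of this score, since its genes were chosen with results known.

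The counterparts were set against each other in the same way, pair by pair. The difference of AGO2 and AGO1 log2 levels was 0.81 ± 0.089 in control RNAi and 0.86 ± 0.13 in nbr RNAi (SD, n = 5), and on nbr RNAi array 5, where both genes were low, it was 0.82. Without that array the treated mean was 0.88 ± 0.15 (SD, n = 4). The difference of Dcr-2 and Dcr-1 was 3.40 ± 0.084 in control RNAi and 3.43 ± 0.18 in nbr RNAi, and array 5 gave the lowest value of all, 3.12. Without it the treated mean was 3.50 ± 0.058 (SD, n = 4), and the shift from the control mean was 0.10 in place of 0.028, more than 1.5 times as large. For r2d2 and loqs it was -0.016 ± 0.12 and 0.065 ± 0.074, and without nbr RNAi array 5 the treated mean was 0.052 ± 0.079 (SD, n = 4). Both Argonaute genes were thus low to a similar degree on array 5, while Dcr-2 was further below its group there than Dcr-1. The groups overlapped for each of these pairs, with and without that array.

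**Figure D3:**
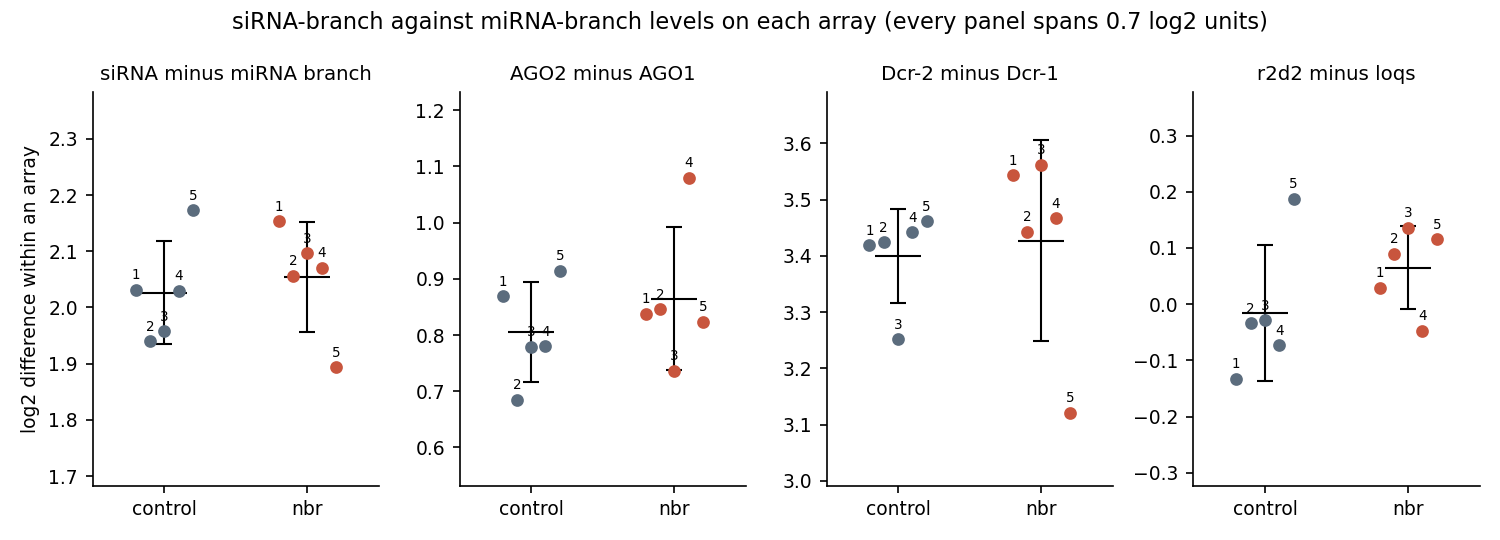
Difference of log2 levels within each array (y axis) between the siRNA and miRNA branch means and between each pair of counterparts, for control RNAi (grey) and nbr RNAi (red). Numbers are replicates, the dash is the mean and bars are the SD (n = 5). The groups overlap in every panel, and nbr RNAi array 5 is lowest for the branch gap and for the Dicer pair.

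Ordered by the mean log2 signal of their probe sets over the 10 arrays, the members ran from AGO2 (12.92), Dcr-2 (12.87) and AGO1 (12.08) through r2d2 (11.84) and loqs (11.81) to drosha (10.10), Dcr-1 (9.45) and pasha (9.05). The signals of AGO2 and Dcr-2 changed places between arrays, their difference running from -0.078 to 0.27, and so did those of r2d2 and loqs and those of AGO1 and r2d2. Since a signal mixes transcript number with probe affinity, this is an order of probe sets and gives none of transcript levels.

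On 1 array the Argonaute and Dicer genes departed downward together, a grouping seen in the values and not tested. On nbr RNAi array 5, the log2 level departed from the mean of the other 4 treated arrays by -0.66 for Dcr-2, -0.46 for AGO2, -0.41 for AGO1 and -0.28 for Dcr-1. It departed by 0.17 for r2d2, 0.10 for loqs, 0.067 for drosha and -0.070 for pasha. The array was thus the lowest of its group for the 4 Argonaute and Dicer genes and for none of the 4 partner and Microprocessor genes. Across all probe sets tested it was the lowest for 26.4% and the highest for 45.6%, and the median departure was 0.066. The departure of Dcr-2 was lower than that of all but 7.03% of probe sets, and those of AGO2, AGO1 and Dcr-1 than all but 10.5%, 11.6% and 16.1%. For pasha, drosha, loqs and r2d2 the share of probe sets with a lower departure was 29.1%, 50.1%, 56.5% and 67.8%. These values are those of the member probe sets. The probe set shared by AGO2 and CG7739 had no departure as large as the -0.46 of AGO2, since it stayed within 11.42 to 11.66 on all arrays.

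The other arrays departed less. The median size over the 8 genes was 0.22 on nbr RNAi array 5 and 0.060 to 0.16 on the other 9 arrays. The largest departures on those arrays were -0.33 for pasha on nbr RNAi array 1 and 0.32 for r2d2 on control array 5. On nbr RNAi array 5 the difference between the 3' and 5' probe sets, a measure of RNA integrity and priming, was 2.29 for eIF-4a, 1.19 for GAPDH and 1.25 for actin on the log2 scale. All 3 lay within the control RNAi ranges of 2.22 to 2.82, 1.03 to 1.34 and 0.91 to 1.36, and the first 2 lay below the other nbr RNAi arrays (2.44 to 2.91 and 1.23 to 1.43). The mean log2 level of the 12 blood cell markers was lowest on this array, at 9.18, against 9.30 to 9.39 in control RNAi and up to 9.48 in nbr RNAi. That of the 6 crystal cell and lamellocyte markers, 2 of them above the filter, was highest on it, at 4.10, against 3.92 to 3.98 in control RNAi. The part of either in the result was not tested.

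**Figure D4:**
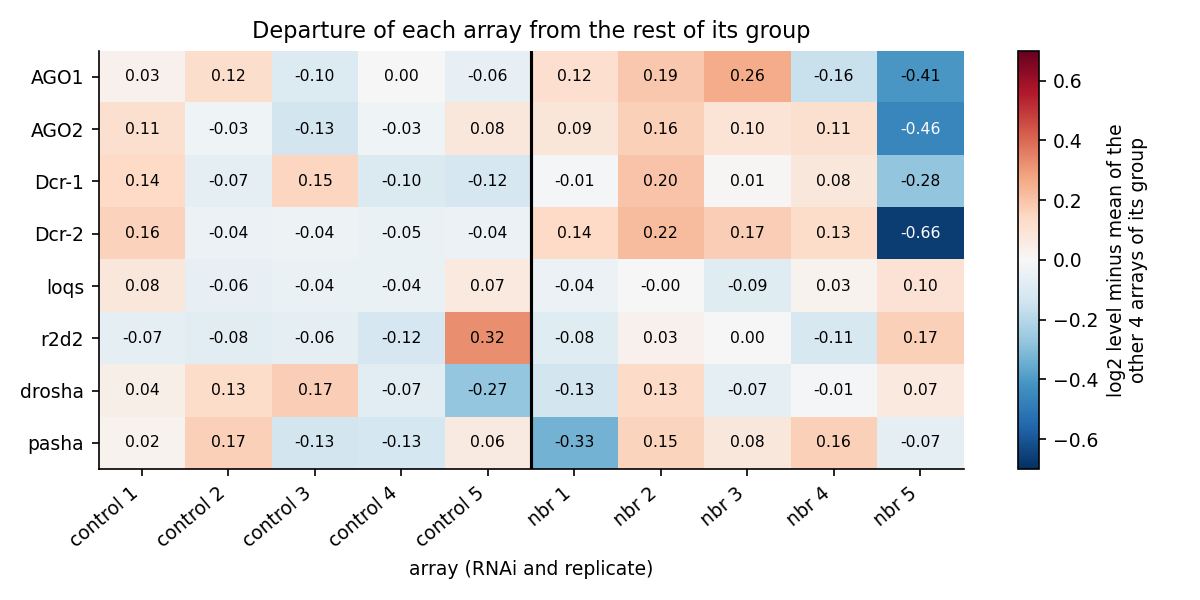
Departure of each array (x axis) from the mean log2 level of the other 4 arrays of its group, for each core gene (y axis). Blue is lower and red higher, with the value in each cell, and the line separates control RNAi from nbr RNAi. In the last column, nbr RNAi array 5, the Argonaute and Dicer genes lie between -0.66 and -0.28.

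Correlations between members across the 10 arrays are given as a description. Among the Argonaute and Dicer genes, Pearson's r was 0.91 for AGO2 and Dcr-2, 0.80 for AGO1 and Dcr-2, 0.79 for Dcr-1 and Dcr-2, 0.75 for AGO1 and AGO2, 0.55 for AGO2 and Dcr-1 and 0.48 for AGO1 and Dcr-1. Pairs of partner and Microprocessor genes ran from -0.36 for r2d2 and drosha to 0.50 for loqs and r2d2. Pairs with 1 gene of each kind ran from -0.68 for AGO1 and loqs to 0.32 for AGO2 and pasha. The median over the 28 pairs was 0.11. Over the 9 arrays without nbr RNAi array 5, AGO2 and Dcr-2 remained at 0.81, while AGO1 and Dcr-2 were at 0.47, Dcr-1 and Dcr-2 at 0.40 and AGO1 and AGO2 at 0.39. AGO1 and Dcr-1 turned to -0.16 and AGO2 and Dcr-1 to -0.074, and the highest value after that of AGO2 and Dcr-2 was 0.72, for Dcr-1 and drosha. These values describe 10 libraries that share their normalization, and all 6 correlations among the Argonaute and Dicer genes were smaller without that 1 array.

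Among 6959 other probe sets with 1 symbol, the profile most like that of Dcr-2 over the 10 arrays was that of fmt (Pearson's r 0.99, and 0.95 without nbr RNAi array 5), followed by Marf1 (0.99 and 0.92). The closest to AGO2 were Su(var)2-10, a SUMO ligase gene, at 0.98 and 0.95, and POSH at 0.97 and 0.93. AGO1 was matched best by CG2924 (0.95 and 0.90) and lncRNA:CR42549 (0.94 and 0.91), and Dcr-1 by BOD1 and CG8289 (both 0.93, and 0.86 and 0.87). For r2d2 the closest were CG6231 (0.98 and 0.99) and TBPH (0.94 and 0.92), which encodes an RNA-binding protein. For drosha they were ZIPIC (0.95 and 0.95) and lin (0.94 and 0.94), for pasha CG5850 (0.86 and 0.87) and Mob2 (0.85 and 0.86), and for loqs Sec15 (0.83 and 0.80) and Mgat2 (0.83 and 0.80). With so many probe sets compared over 10 arrays, high values arise for any gene, and they are given as descriptions.

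Other genes of the same pathways were taken from 5 lists of 40 genes in all, of which 38 were matched and all 38 passed the filter. Limma called 0 as higher and 1, nbr, as lower, and 4 had an unadjusted limma p under 0.05, as did 5.87% of all probe sets. The log2 fold change was above 0 for 17 and below 0 for 21, and its median was -0.0032, beside 0.0056 over all probe sets tested. On nbr RNAi array 5, 14 of the 38 had the lowest level of their group and 12 the highest, where the shares over all probe sets were 26.4% and 45.6%. Without that array nbr was again the 1 gene called, and the sign of the log2 fold change turned for 7 of the 38. An unadjusted limma p under 0.05 was then reached by 6 of the 38. The share of all probe sets in either direction without that array was not counted, so no excess is read from the 6.

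Of 8 measured genes of miRNA processing and end modification, nbr fell and 7 did not pass. Ldbr, the lariat debranching enzyme gene needed for miRNAs made from introns, was at -0.19 (95% interval -0.36 to -0.023, limma Benjamini-Hochberg adjusted p = 0.849), with levels of 9.56 to 9.85 in control RNAi and 9.29 to 9.69 in nbr RNAi, and again -0.19 without nbr RNAi array 5. Ars2, whose product helps Dicer-2 and the Microprocessor, was at -0.066 and read 11.96 on nbr RNAi array 5, its lowest value. Without that array its sign turned, to 0.040. Tailor, which adds uridines to the 3' ends of hairpins, was at 0.020 (95% interval -0.071 to 0.11), and 0.042 without it.

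None of the 11 measured partners of the Argonaute effector complexes passed, and 0 had an unadjusted p under 0.05. Their log2 fold changes ran from -0.017 to 0.092, the highest being brat, a translational repressor gene (limma Benjamini-Hochberg adjusted p = 0.866), and from -0.089 to 0.14 without nbr RNAi array 5. The gw gene, whose product Gawky binds Argonaute 1, was at -0.0041 (95% interval -0.10 to 0.092), and 0.026 without that array. Fmr1 was at -0.0043 and -0.0034, brat at 0.092 and 0.084, and mei-P26 at 0.051 and 0.14, with and without it.

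None of the 11 measured genes of siRNA loading and end modification passed. Trax and trsn encode the C3PO nuclease, which clears the passenger strand from the Argonaute 2 complex, and they were at -0.12 (95% interval -0.23 to -0.0048) and -0.087 (-0.20 to 0.022). Their limma Benjamini-Hochberg adjusted p values were 0.849 and 0.866, and their groups overlapped. They were at -0.14 and -0.12 without nbr RNAi array 5. Hen1, the gene of the siRNA 3' end methyltransferase, was at 0.29 (95% interval -0.12 to 0.70), with its highest level, 9.11, on that array, and at 0.18 without it. The list holds 6 chaperone and co-chaperone genes of Argonaute loading. Hsc70-4 was at 0.019 (95% interval -0.054 to 0.092), Hsp83 at 0.011 (-0.078 to 0.10), Droj2 at 0.032 (-0.043 to 0.11), Hop at 0.031 (-0.055 to 0.12), DnaJ-1 at 0.028 (-0.11 to 0.16) and p23 at -0.0024 (-0.082 to 0.077). Leaving out nbr RNAi array 5, they ran from -0.015 for p23 to 0.065 for DnaJ-1.

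In the PIWI clade, the Argonaute relatives that carry Piwi-interacting RNAs, all 3 genes had a positive log2 fold change and none passed. Aub read 9.25 to 9.65 in control RNAi and 9.56 to 10.01 in nbr RNAi, with overlap, and its log2 fold change of 0.39 (95% interval 0.18 to 0.59) had a limma Benjamini-Hochberg adjusted p of 0.849. It was 0.39 also without nbr RNAi array 5. Piwi was at 0.096 and AGO3 at 0.060, and without that array at 0.14 and 0.048. None of 6 other dsRNA-binding protein genes passed. Stau, which acts in mRNA localisation, was at -0.14 (95% interval -0.44 to 0.15) and read 11.96 on nbr RNAi array 5. Without that array it was at -0.0065. Mle was at 0.10 with and without it, and blanks, a low-level gene of the siRNA pathway, at 0.16 (95% interval -0.21 to 0.54), and 0.26 without it.

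**Figure D5:**
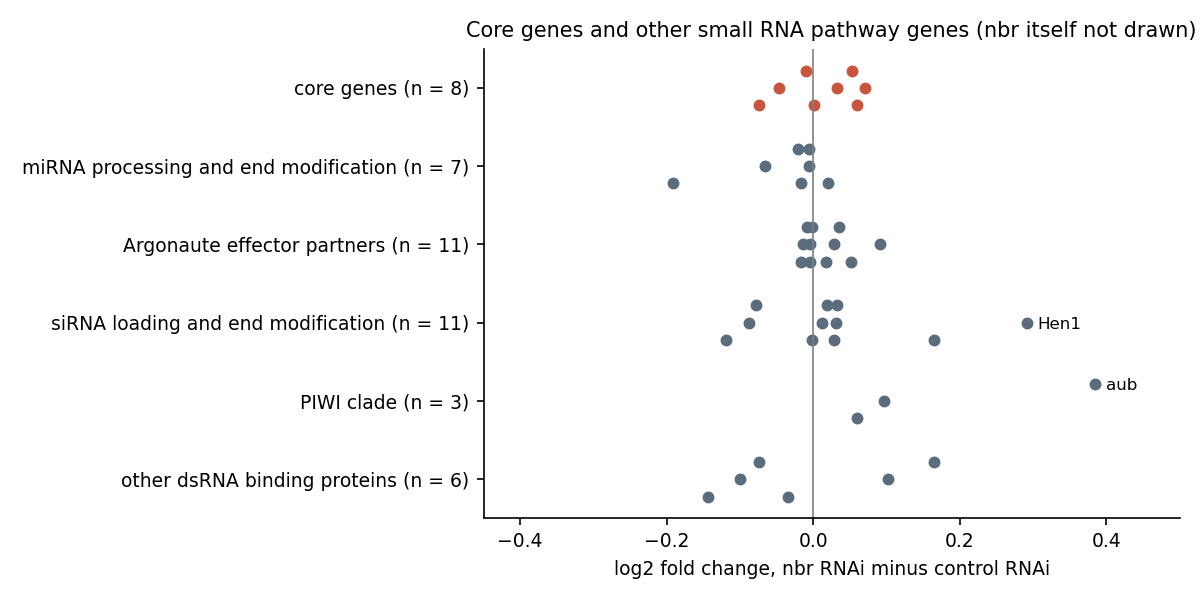
Log2 fold change (x axis, nbr RNAi minus control RNAi) of the 8 core genes (red) and of other genes of the small RNA pathways by list (grey, y axis), with nbr left out and vertical offsets for legibility only. The core genes lie between -0.075 and 0.071. Aub, at 0.39, and Hen1, at 0.29 (0.18 without nbr RNAi array 5), lie farthest from 0, and neither passed the test.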

How the data were processed

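RNA of 10 cultures was amplified as cDNA and given a biotin label, per the labels' protocols. The deposited values are log2 levels per probe set, and GCRMA and Partek are named, with no versions, in the submitters' processing notes. GCRMA includes quantile normalization between arrays, which removes differences in the total RNA of a cell. Per the file headers, the authors' deposited table also lists a p-value, a signed fold, a score and a q-value as a percentage for each probe set, of which the fold and the q-value are quoted.

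From these values, limma 3.58.1 in R 4.3.3 (lmFit, eBayes, 2-sided) compared the groups over 7729 probe sets, array controls left out, with Benjamini-Hochberg adjustment over all of them. The fit was tested on simulated data. Summaries used Python 3.11.15 and pandas 2.3.3, and figures matplotlib 3.10.9. Names came from the table's symbols and the RefSeq Release 6 plus ISO1 MT table, which matched 13319 probe sets by accession. The array files name no genome build, so no coordinates of that assembly are printed. The number of arrays limits the precision.

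The members, gene lists and tests were chosen with earlier results of these data known. Named are all members, nbr, up to 3 genes of a list with the smallest p, and the 2 profiles most like each member. Tailor, gw, Fmr1 and the chaperone genes were added to this as genes of known role, after their values were seen. Correlations of deviations between arrays with the same replicate number ran from -0.47 to 0.18. They show no strong shared deviation, but cannot exclude that cultures of the same number were handled together. The main fit treated the arrays as unpaired.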

Additional observations from a re-analysis of the deposited data

Results flagged for a closer look

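In groups of 5 arrays, a value was picked out when its gap to the nearest other array, divided by the range of the group, exceeded Dixon's 95% critical value. Of 26 groups examined, 6 were picked out, where the nominal rate for independent groups is about 1 in 20. The groups are not independent, since the differences are built from the same levels. The share picked out over all probe sets was not counted, so no excess is read from the 6. Of the 6 values, 3 were on nbr RNAi array 5. AGO2 was low there, at 12.58 (gap over range 0.875), Dcr-2 was low, at 12.31 (0.896), and so was the difference of Dcr-2 and Dcr-1, at 3.12 (0.731). The other 3 were in control RNAi. Dcr-2 was high on array 1, at 13.02 (0.953), above 4 arrays that lay within a very narrow range, r2d2 was high on array 5, at 12.06 (0.876), and the difference of Dcr-2 and Dcr-1 was low on array 3, at 3.25 (0.799).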

How the results depend on the processing

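None of the 8 members was called by limma in any of 19 alternative fits, and the lowest Benjamini-Hochberg adjusted p over the 152 values was 0.364. The sign turned in 15 of them. It could not turn in fits that changed only the filter, the test, the replicate block or the probe sets kept, since these leave the log2 fold change as it was. AGO1 was at -0.0072 after quantile normalization and -0.0054 after median centring, and array weights gave 0.060 for Dcr-2, -0.041 for drosha and -0.020 for pasha. Leaving out single arrays, AGO1 ran from -0.051 to 0.082, AGO2 from 0.027 to 0.15, Dcr-1 from -0.11 to -0.019, Dcr-2 from -0.091 to 0.085, loqs from -0.031 to 0.0072, r2d2 from 0.037 to 0.14, drosha from -0.022 to 0.067 and pasha from 0.020 to 0.12. The count over all probe sets tested was 2, and it was 4 with median centring, 4 with array weights, 1 with the replicate number as a block and 1 to 3 when an array was left out. The replicate block changed no member's call. The shift of the gap between branches, 0.028, was 0.0028 to 0.068 without an array, and its sign turned with medians over genes, to -0.054. All were smaller in size than 0.094, the SD of single arrays with all arrays kept. That SD is not the standard error of the shift, so it does not decide whether a shift was present.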
